A study of Mus musculus with 8 samples.

Results

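Genes that make, package, recapture or break down dopamine were followed in striatal RNA from 8 male C57BL/6 mice, an inbred laboratory strain. They were Th, Ddc, Gch1, Slc6a3, Slc18a2, Maoa, Maob and Aldh1a1, with Nr4a2, a nuclear receptor needed for dopamine neuron identity. The 9 genes were chosen by name, and each had exactly 1 probe set with its symbol alone, out of 21789 such probe sets on the whole-transcript array. The striatum receives dopamine axons from the midbrain, and MPTP is a toxin that injures those axons. Mice were 6 weeks old and were injected every 24 h for 4 weeks, with 2 mice in each of 4 groups and 1 array per mouse. The control group received saline without MPTP or needling. The MPTP group received MPTP at 20 mg/kg of free base and was not needled. The acupoint group received the same MPTP and was needled on both sides at LR3 (1 mm deep) and GB34 (3 mm deep), and the non-acupoint group received the same MPTP and was needled at both hips (3 mm deep). Needling began 2 h after the first injection and was given in 14 sessions 48 h apart. All groups were wild-type animals, no group was needled without MPTP, and the loss of dopamine axons in these mice was not analysed here. Values are log2 signals as the authors normalised them, so a difference of 1 is a doubling, and values of different probe sets are not set against each other.

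Dopamine is made from tyrosine by tyrosine hydroxylase (Th), the rate-limiting enzyme, and by aromatic amino acid decarboxylase (Ddc). Gch1 encodes the enzyme that starts the synthesis of tetrahydrobiopterin, the cofactor of tyrosine hydroxylase. Slc18a2 encodes the transporter that loads dopamine into vesicles, and Slc6a3 the transporter that takes it back from the synapse and also carries the active metabolite of MPTP into dopamine neurons. Maoa and Maob encode the monoamine oxidases, of which the product of Maob in glial cells turns MPTP into that metabolite. Aldh1a1 encodes an aldehyde dehydrogenase that clears the reactive aldehyde left by the oxidases, and Nr4a2 a nuclear receptor needed for dopamine neuron identity. The cell bodies that transcribe Th, Slc6a3 and Slc18a2 lie mainly in the midbrain, so the striatum holds their proteins in axons but little of their mRNA. Ddc is likewise made mainly by monoamine neurons. Maoa and Maob are transcribed by cells of the striatum itself, and Gch1, Aldh1a1 and Nr4a2 by midbrain neurons and by other cell types.

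Promoters are shown for the 3 genes whose proximal sequence carries the motif of a factor that the arrays also bear on. They are the cAMP response element, through which neuronal activity acts on transcription, and the element bound by the product of Nr4a2. The sequences are RefSeq's (GRCm38.p6), cover 250 bases before to 50 after a start site, and were given for 8 of the 9 genes. Capitals mark the 8 bases of the motif, TGACGTCA in Th and Slc18a2 and the reverse complement of AAAGGTCA in Ddc. They lie at chr7:142899946-142900245 (Th, minus strand), chr19:59260628-59260927 (Slc18a2, plus strand) and chr11:11898095-11898394 (Ddc, minus strand).
Th: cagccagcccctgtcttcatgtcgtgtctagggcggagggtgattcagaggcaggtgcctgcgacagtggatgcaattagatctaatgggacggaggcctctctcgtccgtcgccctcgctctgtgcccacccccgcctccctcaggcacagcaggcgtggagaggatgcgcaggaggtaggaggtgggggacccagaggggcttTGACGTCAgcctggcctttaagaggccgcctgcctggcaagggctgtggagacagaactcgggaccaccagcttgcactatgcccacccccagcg
Slc18a2: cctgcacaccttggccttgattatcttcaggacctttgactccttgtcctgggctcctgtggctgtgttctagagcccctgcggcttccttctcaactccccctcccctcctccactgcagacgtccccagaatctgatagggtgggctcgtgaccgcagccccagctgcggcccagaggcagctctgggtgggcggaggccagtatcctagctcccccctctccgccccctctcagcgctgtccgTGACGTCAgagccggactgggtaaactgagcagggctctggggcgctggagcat
Ddc: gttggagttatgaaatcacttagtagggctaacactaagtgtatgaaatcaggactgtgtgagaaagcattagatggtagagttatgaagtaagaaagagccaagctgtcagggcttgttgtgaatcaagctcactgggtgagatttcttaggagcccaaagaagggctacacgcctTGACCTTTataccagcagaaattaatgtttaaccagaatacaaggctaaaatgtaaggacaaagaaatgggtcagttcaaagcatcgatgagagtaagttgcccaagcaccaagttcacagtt
Both strands were searched for TGACGTCA, its shorter core TGACG, AAAGGTCA and TATAAA. TGACGTCA began 45 bases before the start site of Th and 4 bases before that of Slc18a2, and was present in 1.79% of 32851 promoters of this length. AAAGGTCA was found on the minus strand of 1 of the Ddc promoters, 73 bases upstream, against 1.51% of promoters. It was not found in the other Ddc window or in those of the other genes. It overlapped a TATAAA match, also on the minus strand, that began 68 bases upstream. TATAAA was present in 13.6% of promoters, and the windows of Gch1 and Nr4a2 also had a match on the minus strand. TGACGTCA was not found in the windows given for Ddc, Gch1, Slc6a3, Aldh1a1, Nr4a2 and Maoa. The core TGACG, present in 20.8% of promoters, had 4 matches in the window of Nr4a2 and 1 each in those of Gch1 and Maoa. A match describes the letters and was not tested as a binding site.

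The arrays differed in tissue markers, and MPTP mouse 1 stood apart. Each list below is given as its mean log2 difference from the controls. The 12 measured of 14 genes of striatal signalling stood at -2.02 in MPTP mouse 1 and between -0.62 and 0.36 in the other MPTP-treated mice, and Drd1, the D1 dopamine receptor that marks striatal projection neurons, had a log2 value of 7.93 there and between 9.61 and 10.68 elsewhere. The 13 markers of thalamus, septum and pallidum stood at 2.04 in MPTP mouse 1, 1.42 in non-acupoint mouse 2 and between -0.67 and 0.68 in the other MPTP-treated mice. Choroid plexus markers (13 of 14 measured) stood between 2.16 and 2.87 in MPTP mouse 1, acupoint mouse 1 and both non-acupoint mice, and at -0.17 and 0.13 in MPTP mouse 2 and acupoint mouse 2. In bulk tissue, fewer cells of a type and less RNA per cell cannot be told apart. Results that rest on the MPTP group are therefore also given from MPTP mouse 2 alone where the values moved, on the assumption that this lone array varies like the other groups.

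No dopamine gene changed past the adjusted threshold in MPTP-treated striatum. Of 8 genes bright enough to be tested, 0 passed by limma's moderated test with Benjamini-Hochberg adjustment over all 16342 probe sets, where 0% of all probe sets passed, and the adjusted p ran from 0.93 to 0.99. Without adjustment only Ddc had a p under 0.05, against 3.99% of probe sets. Of all 9 genes, 8 had a higher mean than controls and Slc18a2 had a lower one, and their median change was 0.25 against 0.01 for all probe sets tested. That tally rested on MPTP mouse 1. Without it 4 of the 9 were higher (Th, Ddc, Slc6a3 and Nr4a2) and 5 lower, the median was -0.01, and the only unadjusted p under 0.05 was that of Slc18a2 on the lower side, against 5.21% of probe sets. Th and Slc6a3, the usual protein markers of dopamine axons in the striatum, were not lower in mean RNA signal than in controls. With 2 arrays a group, the intervals below also allow sizeable changes in both directions for most genes, and an exact permutation test of 2 against 2 cannot give a two-sided p below 0.333.

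**Figure D1:**
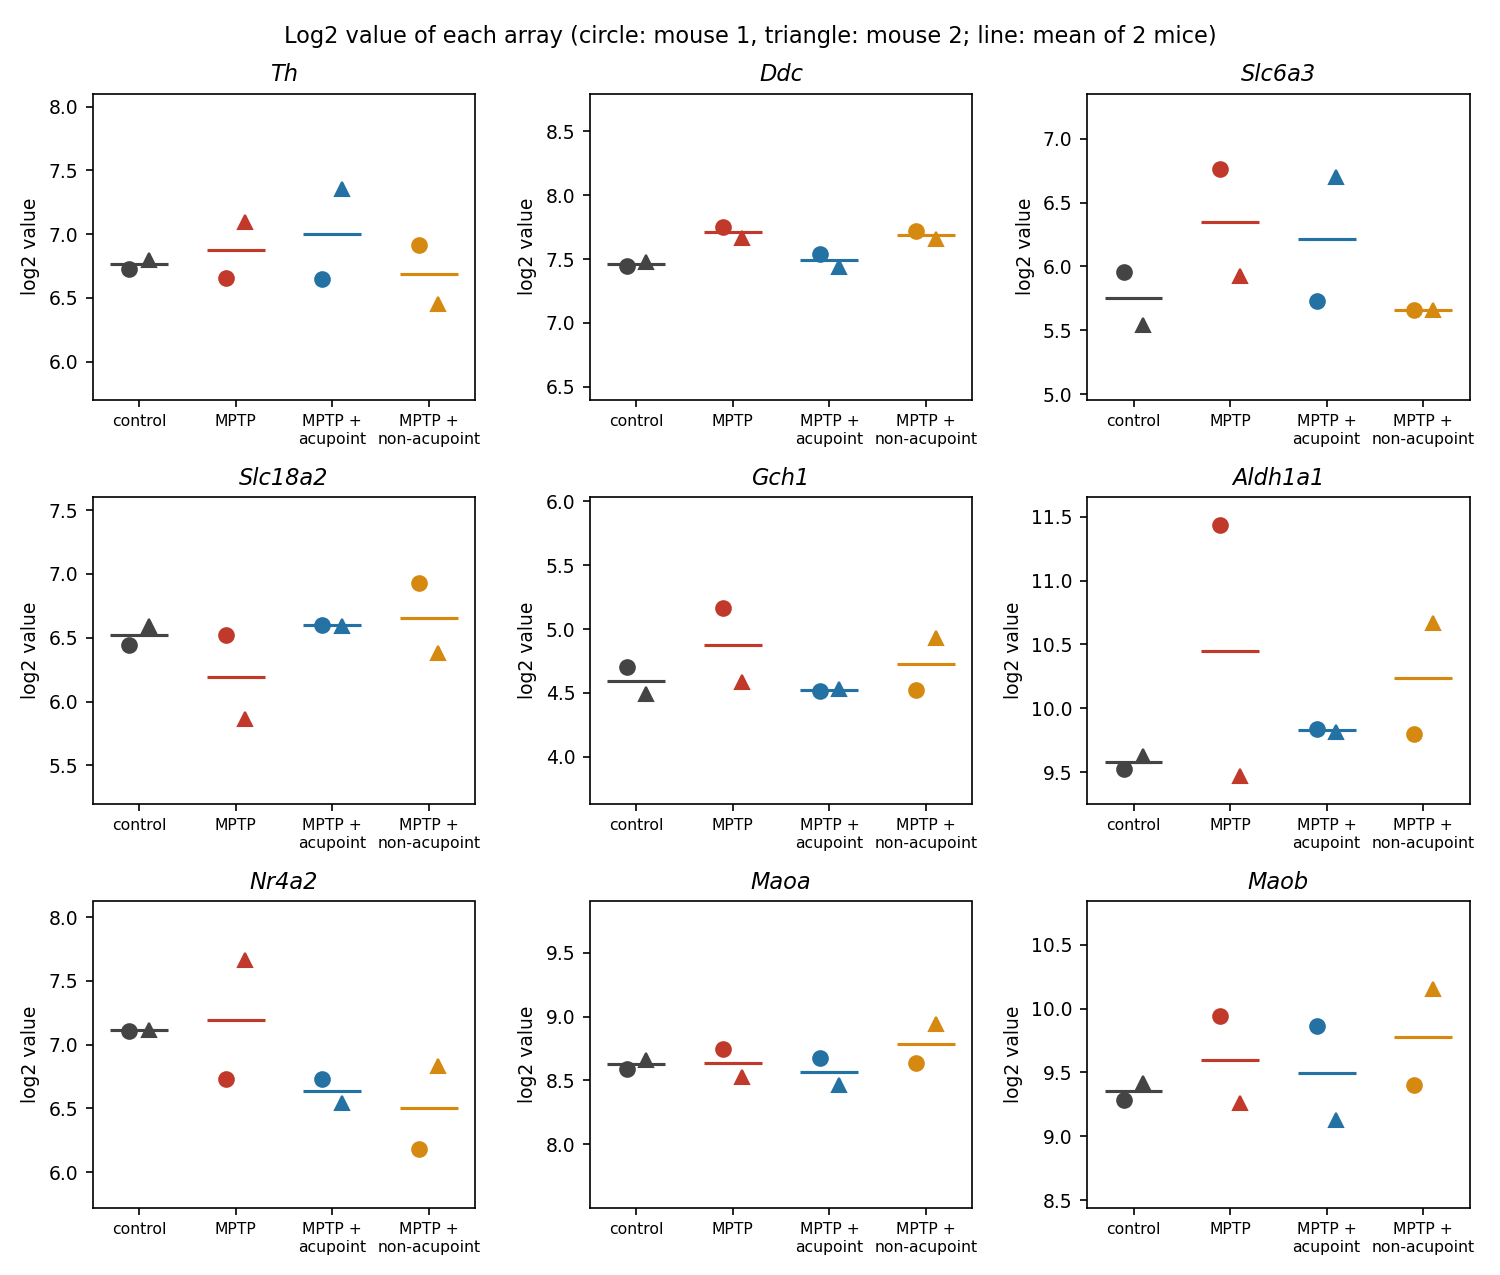
Log2 value of each of the 9 genes (y axis, a window of equal height in every panel) in each array, by group (x axis), with mouse 1 as a circle, mouse 2 as a triangle and the mean of 2 mice as a line. The control pairs lie close together in most panels, while Aldh1a1 in MPTP mouse 1 (11.43) and Nr4a2 in MPTP mouse 2 (7.66) stand away from the other MPTP mouse.

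Th gave 6.73 and 6.80 in controls, 6.66 and 7.10 in the MPTP mice, 6.65 and 7.35 in the acupoint mice and 6.92 and 6.45 in the non-acupoint mice. Acupoint mouse 2 was highest and non-acupoint mouse 2 lowest, and the MPTP, acupoint and non-acupoint pairs each straddled the controls. The change in MPTP striatum was 0.11 (SE 0.27, 95% interval -0.53 to 0.75, adjusted p = 0.96 by limma), so a fall larger than 0.53 lies outside the interval. Without MPTP mouse 1 it was 0.33, and without MPTP mouse 2 it was -0.11. The group means followed the order acupoint, MPTP, control and non-acupoint, from 7.0 ± 0.50 (SD, n = 2) to 6.68 ± 0.33 (SD, n = 2), and each neighbouring pair of groups overlapped.

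Slc6a3 gave 5.95 and 5.54 in controls, 6.77 and 5.93 in the MPTP mice, 5.73 and 6.70 in the acupoint mice and 5.65 in each non-acupoint mouse. The values of the 2 non-acupoint arrays were equal to the last deposited decimal, and 27 of 35557 probe sets, Slc6a3 among them, were tied in this way. MPTP mouse 1 and acupoint mouse 2 stood about 1 above the control mean (1.02 and 0.95), and the other 4 treated mice lay within the range of the controls. The change with MPTP was 0.60 (SE 0.37, 95% interval -0.28 to 1.48, adjusted p = 0.93 by limma), or 0.18 without MPTP mouse 1. Non-acupoint mice lay below both MPTP mice, with a difference of -0.69 (SE 0.37, adjusted p = 0.74), or -0.27 without MPTP mouse 1, and below both acupoint mice, which exceeded them by 0.56 (SE 0.37, adjusted p = 0.96). That last difference was 0.07 without acupoint mouse 2. The group means ran from 6.35 ± 0.59 in MPTP through acupoint and control to 5.65 ± 0 in non-acupoint mice (SD, n = 2), and each neighbouring pair overlapped.

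Slc18a2 gave 6.44 and 6.60 in controls, 6.52 and 5.87 in the MPTP mice, 6.60 and 6.59 in the acupoint mice and 6.93 and 6.38 in the non-acupoint mice. MPTP mouse 2 was the lowest of all 8, and MPTP mouse 1 lay between the controls. The change with MPTP was -0.33 (SE 0.25, 95% interval -0.91 to 0.26, adjusted p = 0.93 by limma), and it was -0.65 with MPTP mouse 2 as the lone MPTP array (adjusted p = 0.94) and 0.002 with MPTP mouse 1 alone. Acupoint mice exceeded MPTP mice by 0.40 (SE 0.25, adjusted p = 0.90) and non-acupoint mice did so by 0.46 (SE 0.25, adjusted p = 0.74), or 0.73 and 0.79 without MPTP mouse 1 (adjusted p = 0.91 and 0.22). Among the group means, from 6.66 in non-acupoint through acupoint and control to 6.19 in MPTP mice, neighbours overlapped throughout.

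Ddc varied least. It gave 7.44 and 7.48 in controls, 7.75 and 7.66 in the MPTP mice, 7.54 and 7.44 in the acupoint mice and 7.72 and 7.66 in the non-acupoint mice. The MPTP and non-acupoint pairs lay above both controls and both acupoint mice, and the acupoint pair overlapped the controls. Its range over the 8 arrays was 0.31, against a median range of 0.43 for all probe sets tested. The change with MPTP was 0.25 (SE 0.10, 95% interval 0.02 to 0.47, a 1.19-fold difference), with an unadjusted p of 0.036 and an adjusted p of 0.93 by limma, and 0.20 without MPTP mouse 1. In that comparison Ddc was the only tested gene of the set without overlap on the higher side, and 0 were so on the lower side, against 17.3% and 12.1% of probe sets. Against controls the non-acupoint mice differed by 0.23 (SE 0.10, unadjusted p = 0.049, adjusted p = 0.77 by limma), a comparison in which 6.05% of probe sets had an unadjusted p under 0.05 and 26.9% lay without overlap on the higher side. The acupoint mice differed by -0.22 from the MPTP mice and by -0.20 from the non-acupoint mice (SE 0.10 and adjusted p = 0.90 and 0.96 by limma), where 18.9% and 24.6% of probe sets were without overlap on the lower side. These comparisons share arrays with each other. The group means ran from MPTP (7.71 ± 0.06) through non-acupoint (7.69 ± 0.05) and acupoint (7.49 ± 0.07) to control mice (7.46 ± 0.03, SD, n = 2 each), and only non-acupoint and acupoint mice did not overlap as neighbours.

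**Figure D2:**
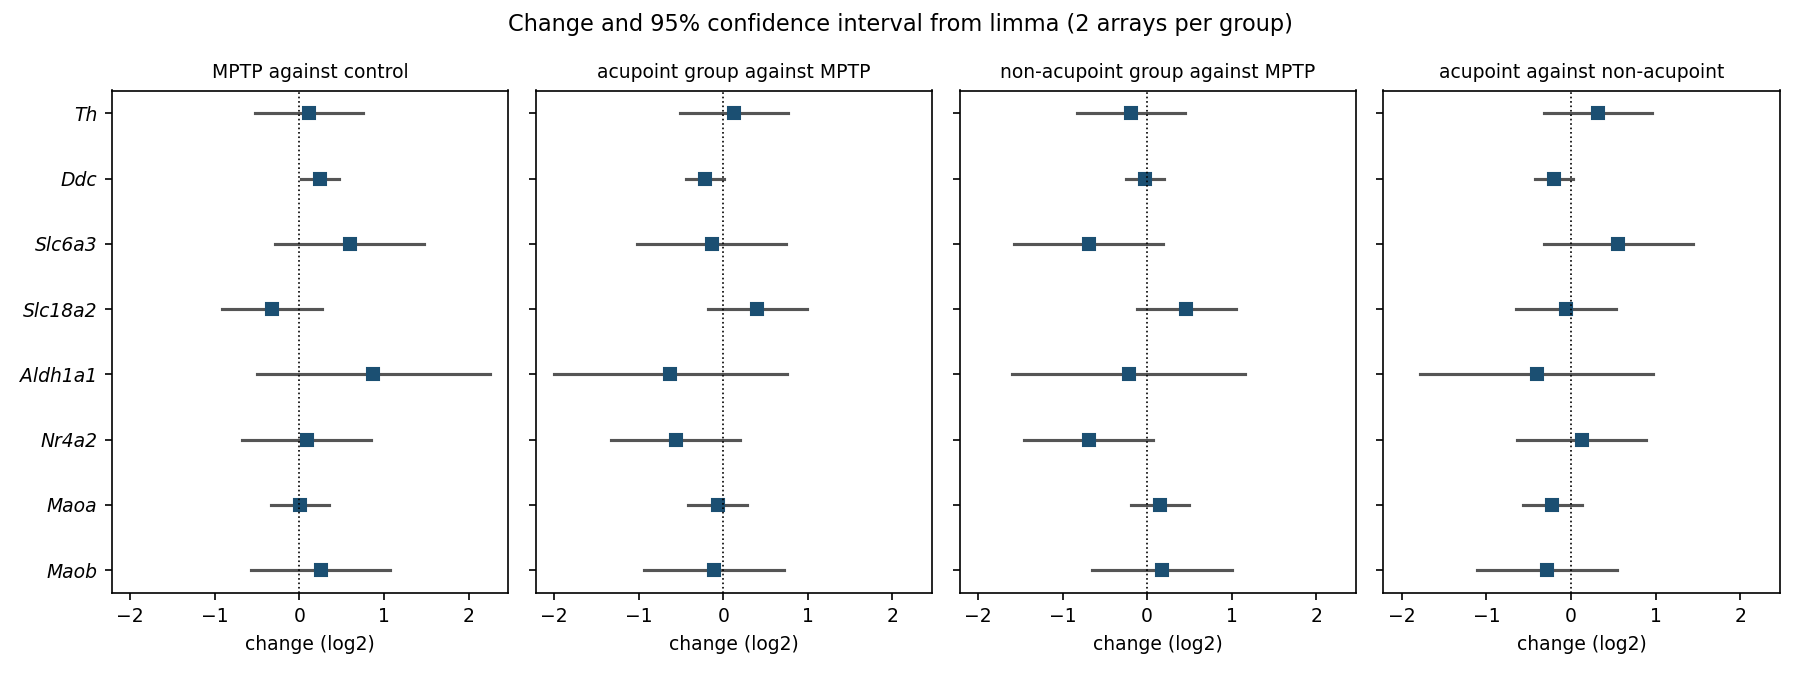
Change on the log2 scale (x axis, squares) with its 95% confidence interval from limma (lines) for the 8 tested genes (y axis) in 4 comparisons of 2 arrays against 2. All intervals but that of Ddc in MPTP against control (0.02 to 0.47) include 0, and those of Aldh1a1 are the widest.

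Gch1 was dim. Its mean over all arrays was 4.68, under the level of 5.25 required for testing, and 82.9% of 1210 probe sets for olfactory and vomeronasal receptors, most of which are silent in brain, had a lower mean. It gave 4.70 and 4.49 in controls, 5.17 and 4.59 in the MPTP mice, 4.51 and 4.53 in the acupoint mice and 4.52 and 4.93 in the non-acupoint mice. MPTP mouse 1 and non-acupoint mouse 2 were the highest, and the difference of MPTP from control was 0.28, or -0.01 without MPTP mouse 1, with no test. The other 8 genes lay above the 95th percentile of the receptor probe sets, which was 5.29.

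Aldh1a1 had the widest spread of the 9 genes. It gave 9.53 and 9.62 in controls, 11.43 and 9.47 in the MPTP mice, 9.84 and 9.81 in the acupoint mice and 9.80 and 10.67 in the non-acupoint mice. Its range of 1.96 exceeded that of 98.6% of probe sets tested. MPTP mouse 1 and non-acupoint mouse 2 were the highest. Prkcd, a kinase abundant in thalamic relay neurons, gave 11.97 and 10.48 in those mice and between 7.53 and 9.46 elsewhere. The same mice were highest in the thalamic list (2.04 and 1.42). They were also highest in markers of meningeal fibroblasts (0.52 and 0.48) and of endothelium and pericytes (0.15 and 0.10). In striatal signalling they were lowest (-2.02 and -0.62). The part of any of these tissues in the Aldh1a1 values was not tested. All 4 needled mice lay above both controls, which held for 7.92% of probe sets tested. The change with MPTP was 0.88 (SE 0.58, 95% interval -0.50 to 2.26, adjusted p = 0.93 by limma). It turned to -0.11 without MPTP mouse 1, and with MPTP mouse 1 as the lone MPTP array it was 1.86. With the mean of the thalamic markers as a covariate the change was 0.41 (SE 0.17, adjusted p = 0.71 by limma), and with that of the choroid plexus markers it was 0.39 (SE 0.44). Acupoint and non-acupoint mice differed from MPTP mice by -0.62 and -0.22 with both MPTP mice and by 0.36 and 0.76 without MPTP mouse 1 (adjusted p = 0.93 and 0.32 by limma). Acupoint mice exceeded the controls by 0.25 and non-acupoint mice by 0.66 (adjusted p = 1.00 and 0.82 by limma). From MPTP (10.45 ± 1.39) through non-acupoint (10.23 ± 0.61) and acupoint (9.83 ± 0.02) to control mice (9.58 ± 0.07, SD, n = 2 each), only acupoint and control did not overlap. The probe set of Aldh1a7, a near relative of Aldh1a1 in the mouse, gave 5.10 and 5.77 in controls and between 5.17 and 5.88 in the 6 treated mice, with MPTP mouse 1 and non-acupoint mouse 2 at 5.88 and 5.70.

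Nr4a2 was lower in every needled mouse than in either control. It gave 7.11 in each control, 6.73 and 7.66 in the MPTP mice, 6.73 and 6.54 in the acupoint mice and 6.18 and 6.83 in the non-acupoint mice. MPTP mouse 2 was the highest of all and non-acupoint mouse 1 the lowest. Of all probe sets tested, 10.5% had all 4 needled mice below both controls. The differences from control were -0.48 in acupoint and -0.60 in non-acupoint mice (SE 0.32, adjusted p = 1.00 and 0.77 by limma), and those from MPTP were -0.56 and -0.69 (SE 0.32, adjusted p = 0.90 and 0.74). Without MPTP mouse 1 the last pair became -1.03 and -1.16 (adjusted p = 0.91 and 0.19), and without MPTP mouse 2 they were -0.09 and -0.22. MPTP itself gave 0.08 (SE 0.32, 95% interval -0.68 to 0.85, adjusted p = 0.98 by limma), or 0.55 without MPTP mouse 1 and -0.38 without MPTP mouse 2. In the order MPTP, control, acupoint and non-acupoint, only control and acupoint did not overlap.

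Nr4a2 belongs to 2 groups of genes in this tissue, those induced by neuronal activity and those that mark the deepest cortical layer and the claustrum, which adjoin the striatum. Of 17 immediate early genes other than Nr4a2, the fast genes that activity induces, 16 had a lower mean in MPTP than in control mice, with a median change of -0.72 and 12 at an unadjusted p under 0.05 on the lower side, against 1.88% of probe sets, and 0 past the adjusted threshold. Without MPTP mouse 1 the same count of 16 was lower, the median was -0.47 and 10 had such a p on the lower side, against 2.68% of probe sets. Npas4, a transcription factor of that list, gave 7.93 and 7.95 in controls, 5.95 and 6.55 in the MPTP mice and between 6.76 and 7.09 in the needled mice. MPTP mouse 2 was under both controls in Npas4 and above them in Nr4a2. Homer1, the 1 gene of that list above the control mean in MPTP mouse 2, gave 10.30 there and 10.09 and 10.12 in controls. The part of neuronal activity in the Nr4a2 values was not tested. Cplx3 and Ccn2, markers of the deepest cortical layer picked from their list after the values were seen (as was Fos, an immediate early gene plotted with them), were highest in MPTP mouse 2 (6.30 and 8.11) and lowest in non-acupoint mouse 1 (5.32 and 7.34), the same arrays as for Nr4a2. They were the 2 of 10 measured markers of their list that shared both of these arrays with Nr4a2. In all, 5 of the 10 were highest in MPTP mouse 2 and 4 were lowest in non-acupoint mouse 1, while Rasgrf2 was lowest in MPTP mouse 2 (7.91) and Slc17a7 highest in MPTP mouse 1 (9.79). In controls they gave 5.66 and 5.76 (Cplx3) and 7.88 and 7.96 (Ccn2). The 10 measured of 12 cortical and claustral markers stood at 0.08 relative to controls in MPTP mouse 2, at -1.0 in MPTP mouse 1 and between -0.71 and -0.39 in the needled mice, and their part in the Nr4a2 values was not tested.

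**Figure D3:**
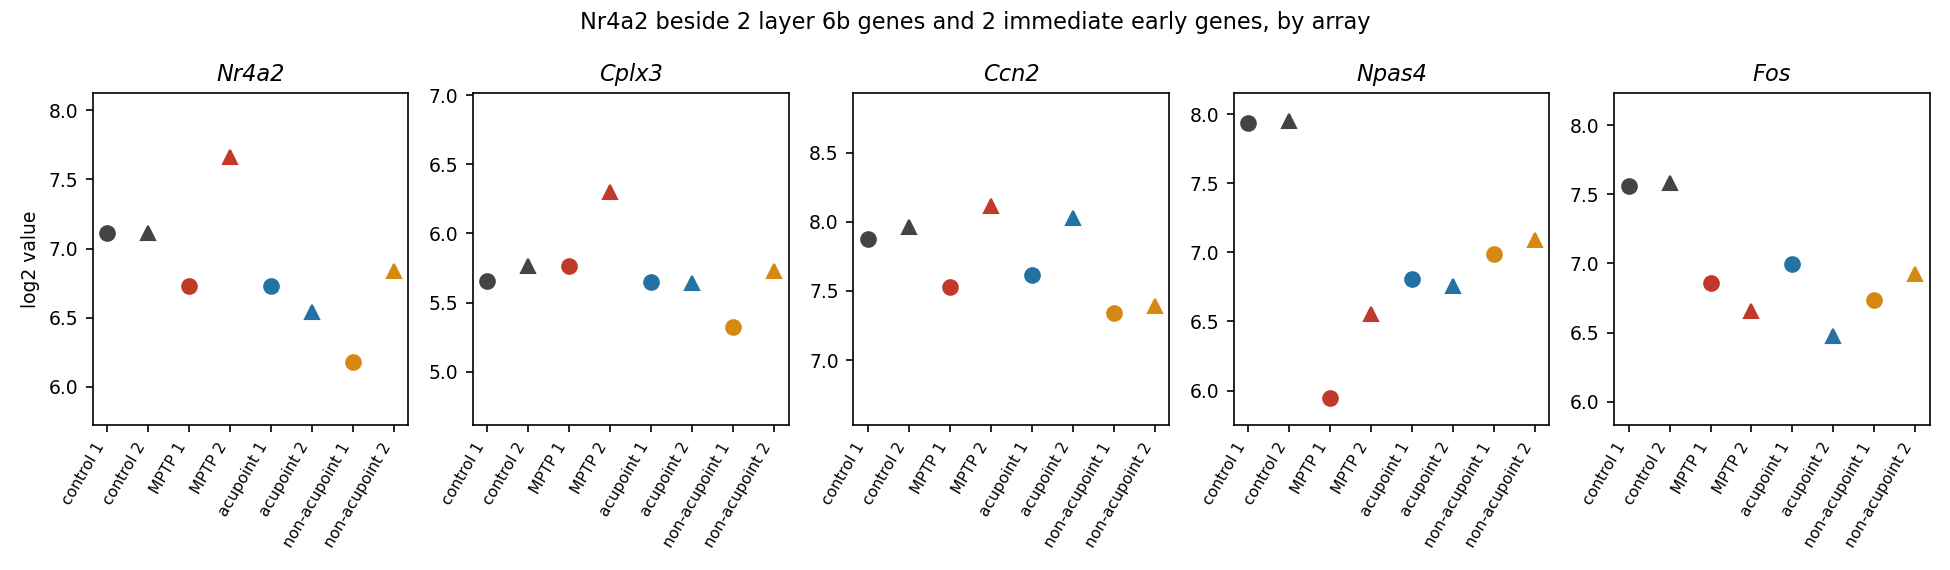
Log2 value (y axis, windows of equal height) of Nr4a2, of 2 deep cortical markers and of 2 immediate early genes in each of the 8 arrays (x axis, colour for group, circle for mouse 1, triangle for mouse 2). Nr4a2, Cplx3 and Ccn2 are highest in MPTP mouse 2 and lowest in non-acupoint mouse 1, which no other of the 10 measured cortical markers shares. Npas4 and Fos lie below both controls in all 6 MPTP-treated mice. Homer1, an immediate early gene not plotted, lies above both controls in MPTP mouse 2.

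The oxidase genes, which striatal cells themselves transcribe, ranked the 8 arrays in the same order and differed in spread. Maoa gave 8.59 and 8.66 in controls, 8.75 and 8.53 in the MPTP mice, 8.68 and 8.46 in the acupoint mice and 8.64 and 8.94 in the non-acupoint mice. Non-acupoint mouse 2 was highest and acupoint mouse 2 lowest, and the MPTP and acupoint pairs spanned the controls. The change with MPTP was 0.01 (SE 0.15, 95% interval -0.33 to 0.35, adjusted p = 0.99 by limma), or -0.10 without MPTP mouse 1, which bounds a change in either direction more tightly than for any other tested gene except Ddc.

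Maob gave 9.28 and 9.42 in controls, 9.94 and 9.26 in the MPTP mice, 9.86 and 9.13 in the acupoint mice and 9.40 and 10.15 in the non-acupoint mice. Its 3 highest arrays, the same as for Maoa, were non-acupoint mouse 2, MPTP mouse 1 and acupoint mouse 1. These were also the 3 highest in the choroid plexus list and in the thalamus list. Ttr, the main secreted product of the choroid plexus, gave 13.49, 13.39 and 13.42 in these mice, 13.20 in non-acupoint mouse 1 and between 8.12 and 9.98 in the others. Non-acupoint mouse 1 was thus rich in Ttr while its Maob lay between the controls. Astrocyte markers, of the glial cells that carry much of the Maob product, stood between -0.15 and 0.14 relative to controls in every array (12 of 12 measured), but single members differed more. Aqp4, their water channel, gave 10.61, 10.55 and 10.23 in MPTP mouse 1, non-acupoint mouse 2 and acupoint mouse 1 and between 9.83 and 10.13 elsewhere. It was 1 of 3 astrocyte markers of 12, with the connexin genes Gja1 and Gjb6, whose 3 highest arrays were those of Maob. Other markers of the list ran the opposite way. Slc1a2, Slc1a3, S1pr1 and Sox9 were lowest in MPTP mouse 1, and Aldoc was lowest in non-acupoint mouse 2. The part of astrocytes in the Maob values was not tested. The change of Maob with MPTP was 0.25 (SE 0.35, 95% interval -0.58 to 1.08, adjusted p = 0.94 by limma), or -0.09 without MPTP mouse 1 and 0.0052 with the thalamic markers as a covariate, and that of non-acupoint mice from control was 0.42 (SE 0.35, adjusted p = 0.81). Group means of both oxidases overlapped between all neighbours in their order, in which non-acupoint mice were highest. For Maoa the order went on with MPTP, control and acupoint mice, and for Maob with MPTP, acupoint and control mice.

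**Figure D4:**
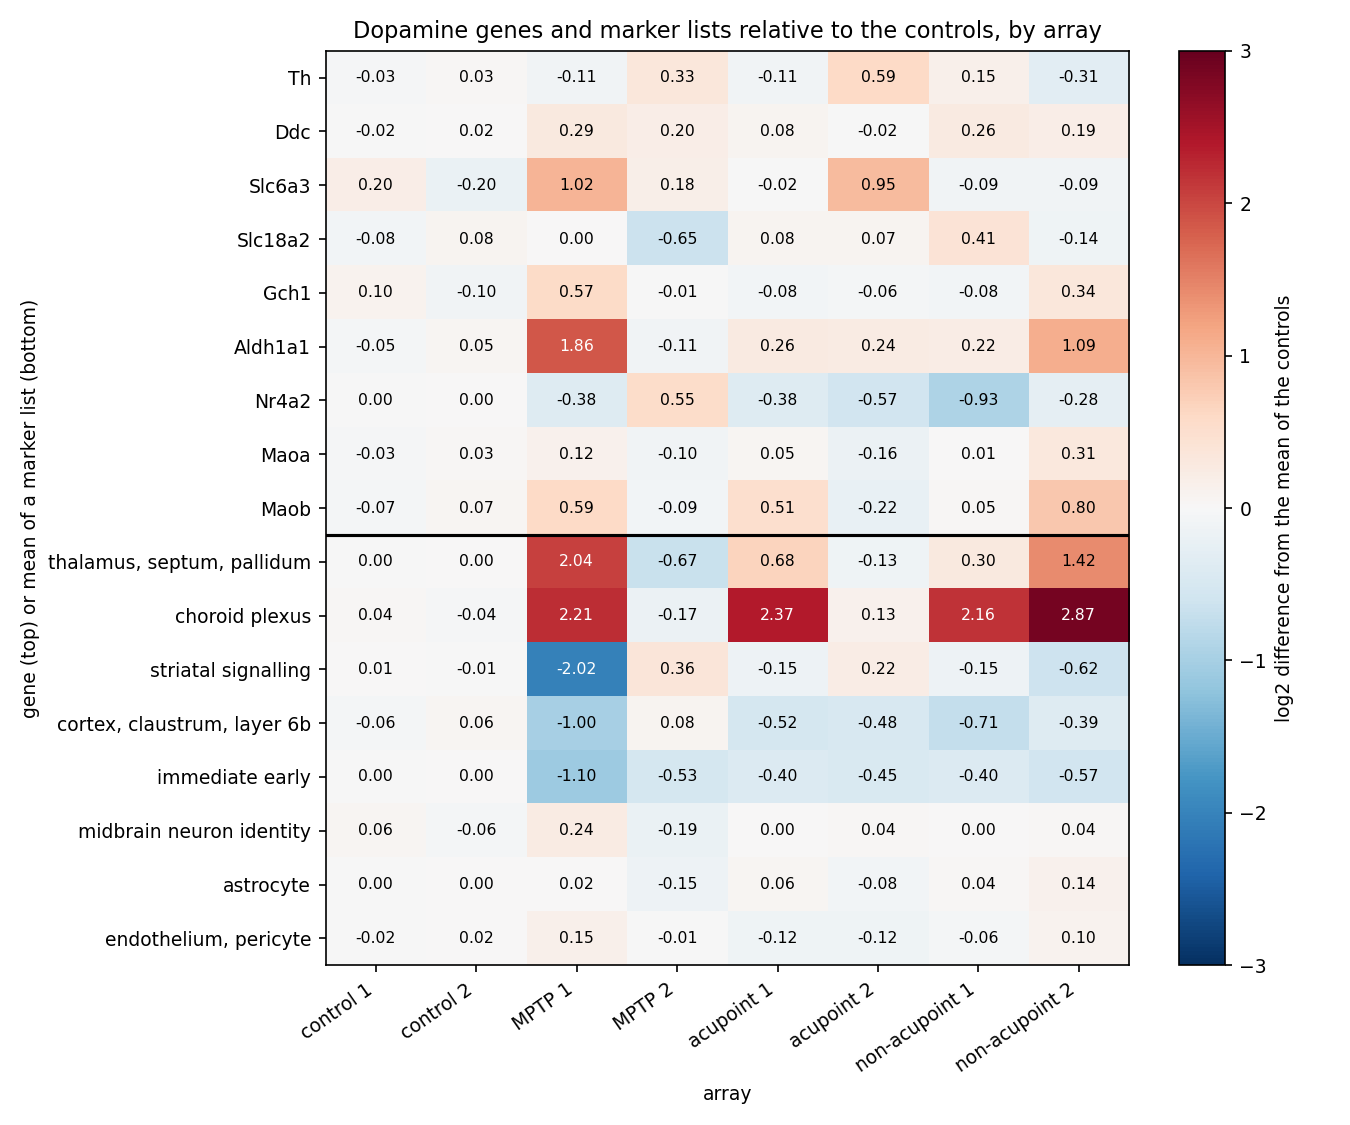
Log2 difference from the mean of the controls (colour and printed value) of the 9 genes (upper rows) and of the mean of 8 marker lists (lower rows) in each array (columns). Aldh1a1 (1.86 and 1.09) and Maob (0.59 and 0.80) are high in MPTP mouse 1 and non-acupoint mouse 2. In these arrays the thalamic list is highest (2.04 and 1.42) and the striatal signalling list lowest (-2.02 and -0.62). Maob is also high in acupoint mouse 1 (0.51). There Aldh1a1 stands at 0.26, the thalamic list at 0.68 and the striatal signalling list at -0.15.

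Needling gave no call among the 9 genes either. Of the 8 tested, 0 passed the adjusted threshold in acupoint against MPTP, non-acupoint against MPTP or acupoint against non-acupoint mice, where 0% of all probe sets passed, and 0 had an unadjusted p under 0.05, against 3.6%, 6.58% and 3.22% of probe sets. Without MPTP mouse 1, 2 genes had an unadjusted p under 0.05 in acupoint against MPTP (Slc18a2 higher and Nr4a2 lower) and 3 in non-acupoint against MPTP (Slc18a2 and Aldh1a1 higher and Nr4a2 lower), against 5.34% and 14.6% of probe sets, and 0 passed the adjusted threshold. With all 8 arrays, 0 genes also passed either threshold for acupoint mice against control (0%, and 1.91% unadjusted) and for all MPTP-treated mice against control (0%, and 3.38% unadjusted), and in non-acupoint mice against control 0 passed (0%). Over all 4 groups, the moderated F-test of limma gave adjusted p-values between 0.92 and 0.93 and called 0% of probe sets. By that test 3.71% of probe sets had an unadjusted p under 0.05, and the lowest among the 8 tested genes was 0.071 (Ddc). Among the 8 tested genes, acupoint and MPTP mice did not overlap for Slc18a2 on the higher side and for Ddc and Nr4a2 on the lower side, against 8.41% and 18.9% of probe sets. Non-acupoint and MPTP mice were so separated for 0 genes on the higher side and for Slc6a3 on the lower side, against 15.4% and 17.7%. Acupoint and non-acupoint mice were separated for Slc6a3 on the higher side and for Ddc on the lower side, against 13.9% and 24.6%. Against control, acupoint mice were separated for Aldh1a1 on the higher side and Nr4a2 on the lower side (12.7% and 21.2% of probe sets), and non-acupoint mice for Ddc and Aldh1a1 on the higher side and Nr4a2 on the lower side (26.9% and 22.6%). The medians of the 9 genes were -0.13 in acupoint against MPTP, -0.15 in non-acupoint against MPTP and -0.20 in acupoint against non-acupoint mice, against -0.04, -0.01 and -0.03 for all probe sets tested. The first pair turned to 0.04 and 0.14 without MPTP mouse 1.

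**Figure D5:**
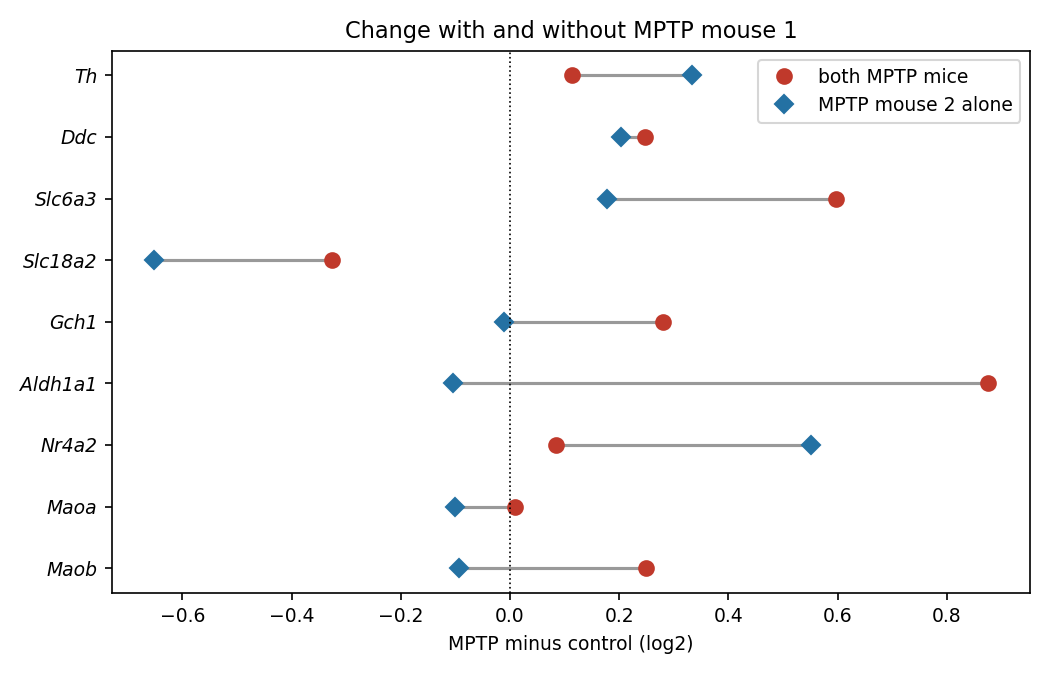
Difference of MPTP from control on the log2 scale (x axis) for the 9 genes (y axis), from both MPTP mice (circles) and from MPTP mouse 2 alone (diamonds). Aldh1a1 moves from 0.88 to -0.11 and Nr4a2 from 0.08 to 0.55, while Ddc moves from 0.25 to 0.20.

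Other genes of the pathway were taken from a list of 14, of which 12 had a probe set of their own and 10 were bright enough to test. With MPTP, 0 passed the adjusted threshold. The median change was 0.12, or -0.03 without MPTP mouse 1. At an unadjusted p under 0.05 by limma, 1 was higher and 0 were lower, against 3.99% of probe sets in either direction. That gene was Aldh2, the mitochondrial aldehyde dehydrogenase, whose log2 value was 8.83 and 9.00 in the control arrays and 9.17 and 9.27 in those of MPTP mice. It differed by 0.31 (SE 0.13, unadjusted p = 0.048, adjusted p = 0.93 by limma). Qdpr, which regenerates tetrahydrobiopterin, stood at 0.19 with MPTP, and Spr, an enzyme of its synthesis, at 0.10. In acupoint against MPTP mice, 0 of 10 had an unadjusted p under 0.05, against 3.6% of probe sets. Qdpr stood at -0.32 (SE 0.18), the aldehyde reductase gene Akr1a1 at -0.12 and Aldh2 at -0.12. Without MPTP mouse 1, Qdpr stood at -0.08 with MPTP and at -0.05 in acupoint against MPTP mice, and Akr1a1 at -0.04 in the latter. Without MPTP mouse 2, Qdpr stood at -0.58 in acupoint against MPTP mice. In non-acupoint against MPTP mice with all 8 arrays, 0 of 10 had an unadjusted p under 0.05, against 6.58% of probe sets. Without MPTP mouse 1, 7 of the 12 measured genes were higher in that comparison and 5 lower. Pcbd1, a gene of this list named after its values were seen, stood at 0.35, or 1.18 without MPTP mouse 1. Gchfr, which encodes the feedback regulator of the Gch1 enzyme, stood at -0.40 (SE 0.19), or -0.59 without MPTP mouse 1. Slc6a2, the noradrenaline transporter, stood at -0.21, or -0.07 without that mouse. Slc29a4, a low-affinity monoamine transporter, stood at 0.81 (SE 0.47), or 1.43 without MPTP mouse 1 (adjusted p = 0.23 by limma). It gave 6.80 and 6.75 in controls, 7.76 and 6.51 in MPTP mice, 7.66 and 6.60 in acupoint mice and 7.65 and 8.23 in non-acupoint mice, with the 4 high arrays those rich in choroid plexus markers.

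Identity genes of midbrain dopamine neurons gave no call. Of 15 listed genes, 14 had a probe set and 10 were tested. With all 8 arrays, 0 passed or had an unadjusted p under 0.05 in MPTP against control or in either needled group against MPTP. The shares of all probe sets with such a p were 3.99%, 3.6% (acupoint) and 6.58% (non-acupoint). With MPTP, 7 were higher and 7 lower, with a median change of 0.002. Without MPTP mouse 1, 2 were higher and 12 lower, with a median of -0.12. In acupoint and non-acupoint against MPTP mice the medians were -0.04 and -0.09, or 0.20 and 0.14 without MPTP mouse 1. Pitx3, a transcription factor of these neurons, gave 6.57 and 6.26 in controls and between 5.87 and 6.42 in treated mice, a difference with MPTP of -0.17, or -0.35 without MPTP mouse 1. Sncg, which encodes gamma-synuclein, stood at -0.30, or -0.79 without MPTP mouse 1 (adjusted p = 0.94 by limma). Slc10a4, a vesicle protein of monoamine and cholinergic neurons, stood at -0.82 with MPTP (SE 0.41, adjusted p = 0.93 by limma) and stood 0.92 and 0.81 higher in acupoint and non-acupoint mice than in MPTP mice. It was 5.94 in MPTP mouse 1 and between 7.35 and 7.62 in the other 7 mice, and the 3 differences were -0.10, 0.20 and 0.09 without MPTP mouse 1. With MPTP mouse 1 as the lone MPTP array, the 3 differences of Slc10a4 were -1.54, 1.64 and 1.53. That array also had the lowest level of the striatal signalling list (-2.02). The other named genes were Kcnj6 (-0.24) and Lmx1b (-0.11) in acupoint against MPTP, which stood at -0.00016 and -0.018 without MPTP mouse 1. In non-acupoint against MPTP they were Foxa1 (-0.33) and Sncg (0.43), which stood at -0.14 and 0.91 without it. Ret, a gene of this list named after its values were seen, stood at 0.33 with MPTP, or -0.60 without MPTP mouse 1. In acupoint and non-acupoint against MPTP mice Ret stood at -0.24 and 0.03, or 0.69 and 0.96 without that mouse. Without it, 10 of the 14 genes were higher and 4 lower in acupoint against MPTP, and 9 and 5 in non-acupoint against MPTP. Chrna6, a nicotinic receptor subunit of dopamine axons, was under the level for testing, at 4.26 and 4.32 in controls, 5.65 in MPTP mouse 1 and between 4.17 and 4.93 in the others.

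The genes whose pattern over the 8 arrays was most like each member were ranked by Pearson's r, as a description over 8 arrays that share their tissue differences. Th was nearest to Cacna1i (r = 0.97), Gtf3c1 and Itga9, Slc6a3 to Prdm14 (0.97), Hoxa7 and Gpx4, Slc18a2 to Ndufc2 (0.94), Pkp1 and Brd3, and Ddc to Tcof1 (0.97), St7 and Gon4l. Gch1 was nearest to Cenpo (0.98), Chd7 and Zbtb7b, Aldh1a1 to Nacc2 (1.00), Tanc1 and Mctp2, and Nr4a2 to Dhx35 (0.99), Dbnl and Ilvbl. Maoa was nearest to Tmem184a (0.99), Uaca and Pdlim5, and Maob to C1ql3 (0.99), Ubash3b and Adh1. No member of the 9 was among the 3 nearest genes of another. All 27 kept an r of at least 0.9 over the 7 arrays without MPTP mouse 1. Those 7 arrays were among the 8 by which the genes were picked as nearest, so this is not an independent check.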

How the data were processed

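Each array received cDNA prepared from 300 ng of striatal RNA, per the labels' protocols. RMA in Affymetrix's Expression Console (versions not given) was used by the authors, per the submitters' processing notes, and the deposited table holds its background-corrected, quantile-normalised log2 values, 1 per probe set and array. Genome build and scan dates are not given in the sources used here, and a shift of most genes in 1 direction could not be seen after such normalisation. Medians of the arrays ran from 6.02 to 6.12. Precision is set by how few arrays there are.

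Of 35557 probe sets, 21789 had 1 gene symbol, 1621 several and 12147 none in the platform's gene table, and 21698 symbols were matched to a RefSeq table (GRCm38.p6), with 0 changed. Probe sets with 1 symbol and a mean of at least 5.25, the 25th percentile, were tested (16342), and 8 of the 9 genes passed. A single linear model of 4 group means over all 8 arrays was fitted with limma 3.58.1 in R 4.3.3 (4 residual and 2.94 prior degrees of freedom), with Benjamini-Hochberg adjustment and a threshold of 0.05. The labels describe separate mice. Marker lists used the brightest probe set of a gene. Beside the 9 genes, the naming rule took the 3 smallest p-values per pathway list and comparison, fixed marker genes, and the 3 nearest patterns. The genes, lists, rule and alternatives were chosen with earlier results of these data known. The computations were tested on simulated data. Alternatives covered filters, shrinkage, normalisation, the mouse number as a block, array weights, the groups in the fit, marker covariates and left-out arrays.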

Additional observations from a re-analysis of the deposited data

How the results depend on the processing

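With 2 arrays a group, only differences well above the spread between mice could be called. Of 378 alternative values for 39 named changes, apart from left-out arrays, 372 kept their direction and stayed short of the threshold and 6 reversed. Maoa with MPTP stood at -0.011 after repeated quantile normalisation, -0.073 with the mean of thalamus markers added as covariate and -0.10 with the choroid plexus mean. With that choroid plexus covariate Maob stood at -0.10 (MPTP against control) and -0.43 (non-acupoint against control) and Sncg at -0.0015 (non-acupoint against MPTP). The cause of these reversals was not tested.

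The number of probe sets called was 0 in every comparison. It became 2 and 14 with the thalamus covariate (MPTP against control and non-acupoint against MPTP), 1 and 2 with only the compared groups in the fit (acupoint and non-acupoint against control), and 1 with array weights (all MPTP-treated against control). None of the 39 named changes passed in these fits. The F-test was not run with array weights, covariates or only the compared groups. With 1 array left out, counts ranged from 0 to 1607 (MPTP against control), 0 to 1453 (acupoint against MPTP), 0 to 794 (non-acupoint against MPTP), 0 to 70 (all MPTP-treated against control) and 0 to 518 (F-test). These highest counts came without MPTP mouse 2, with MPTP mouse 1 as the lone array of its group and assumed to vary like the other groups, and without MPTP mouse 1 the count for all MPTP-treated mice was 1.

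Of 312 values with 1 array left out, 293 kept direction and side, 14 changed sign and 5 passed the threshold (Aldh1a1 and Qdpr once each, Slc10a4 in 3 comparisons). With MPTP against control they ranged from -0.11 to 0.33 (Th), -0.65 to 0.0024 (Slc18a2), -0.010 to 0.57 (Gch1, not tested), -0.11 to 1.86 (Aldh1a1), -0.38 to 0.55 (Nr4a2), -0.10 to 0.12 (Maoa), -0.093 to 0.59 (Maob), -0.082 to 0.45 (Qdpr), -0.79 to 0.18 (Sncg) and -0.35 to 0.0076 (Pitx3). They ranged from -0.25 to 0.0023 for Aldh2 in acupoint against MPTP, and from -0.46 to 0.041 (Slc6a2) and -0.056 to 0.91 (Sncg) in non-acupoint against MPTP.

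The tallies over gene lists without MPTP mouse 1 were added after seeing the data. The mouse numbers do not pair the samples. Deviations of same-numbered mice correlated between -0.49 and 0.40 over 6 pairs of groups, and with the replicate block the count of calls stayed at 0 in each comparison.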

Other observations

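Neurons of the other monoamines also send axons to the striatum, and their identity genes were followed beside the dopamine genes. Of 8 listed genes, 6 had a probe set and 5 were tested. With MPTP, 0 passed the adjusted threshold (limma), while 1 was lower at an unadjusted p under 0.05, against 1.88% of probe sets. That gene, named here after its values were seen, was Htr1a, a serotonin receptor that neurons of cortex and septum also carry. It gave 7.61 and 7.77 in controls, 6.43 and 6.66 in MPTP mice, 7.37 and 6.55 in acupoint mice and 7.73 and 7.39 in non-acupoint mice. Its difference with MPTP was -1.14 (SE 0.26, adjusted p = 0.93 by limma), or -1.02 without MPTP mouse 1. Tph2, the rate-limiting enzyme of serotonin synthesis in neurons, was under the level for testing, with 4.80 and 4.68 in controls, 4.64 and 5.11 in MPTP mice, 4.59 and 5.14 in acupoint mice and 4.75 and 4.71 in non-acupoint mice. Its highest arrays were acupoint mouse 2 and MPTP mouse 2, as for Th. Slc6a4, the serotonin transporter, lay between 5.10 and 5.48 in all 8 mice.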
